A study of Homo sapiens with 10 samples.

Results

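The comparison described here sets 4 RNA sequencing libraries against each other at 18 h of treatment, out of 10 in the series. They are 2 libraries of human pluripotent stem cells given CHIR99021, a small molecule that inhibits the kinase GSK3, and 2 libraries of cells given the recombinant ligand WNT3A. Members were taken from the labels by agent and time. The cells were ESI017, an established human embryonic stem cell line, labelled wild type in every library and kept in the defined medium mTeSR1. They were plated 24 h before treatment and received CHIR99021 at 8 µM or WNT3A at 300 ng/ml. The other 6 libraries are cells in mTeSR1 with nothing added, WNT3A for 6 h and CHIR99021 for 6 h, with 2 libraries each. Each of those groups, and WNT3A at 18 h, has 1 library from each of 2 biological repeats, numbered as replicates 1 and 2. Both CHIR99021 18 h libraries come from repeat 2, and their numbers 1 and 2 are names given here. The design text calls them 2 replicates, and the sources used here do not say whether they were separate wells. The labels list no solvent control for CHIR99021 and give no time for the mTeSR1 cells. Each agent was used at a single dose, so the comparison is of these doses.

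WNT ligands such as WNT3A bind Frizzled receptors and the co-receptors LRP5 and LRP6. This stops the destruction complex of AXIN, APC, casein kinase and GSK3 from marking β-catenin for degradation. Stabilised β-catenin then enters the nucleus and activates genes together with TCF and LEF factors. CHIR99021 reaches the same step from inside the cell by blocking GSK3, without a ligand or a receptor. GSK3 also phosphorylates many proteins outside this pathway, among them glycogen synthase and regulators of lysosome and lipid genes. In human pluripotent cells, WNT signalling is known for switching on genes of the primitive streak, the embryonic structure from which mesoderm and endoderm arise.

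Library totals lay between 1.66e+07 and 2.67e+07 estimated counts, and between 1.66e+07 and 2.09e+07 in the 4 libraries at 18 h. A count of 3 corresponds to 0.112 to 0.18 CPM (estimated counts per 1e+06 of a library's total), and this floor covers counting error only. Defining pluripotency genes were present in all 4 libraries at 18 h, with POU5F1 at 1496 to 1790 CPM, SOX2 at 288 to 380 CPM and NANOG at 139 to 240 CPM. Of 73 markers of 6 other cell types, 37 were too low to be tested, and 8 of the 73 had 0 counts in all 4 libraries. These are bulk samples, so fewer cells of a type and less RNA per cell cannot be told apart. Mitochondrially encoded transcripts took 5.12% and 5.14% of counts in the CHIR99021 18 h libraries, 2.7% and 4.1% in those of WNT3A 18 h, and 3.94% and 6.73% in mTeSR1.

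No gene differed between CHIR99021 and WNT3A at 18 h once multiple testing was accounted for. Of 15251 gene symbols tested with edgeR's quasi-likelihood test with the biological repeat as a block, 0 passed a false discovery rate (FDR) of 0.05, and 0% is the share called. The lowest FDR was 0.56. At an unadjusted p under 0.05 there were 629 symbols, 4.12% of those tested, 275 of them higher with CHIR99021 (1.8%) and 354 lower (2.32%). DESeq2 called 9 symbols at the same FDR, which are named below. Against cells in mTeSR1, which both comparisons share, CHIR99021 at 18 h raised 176 symbols (1.15%) and lowered 248 (1.63%), and WNT3A at 18 h raised 315 (2.07%) and lowered 436 (2.86%). The same fit thus called differences of either treatment from the medium.

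An FDR above the threshold does not show that the treatments act alike, so the interval of each difference was examined. The median log2 difference over all symbols, CHIR99021 minus WNT3A, was 0.00. Its 5th and 95th percentiles were -0.57 and 0.58. For 11013 symbols, 72.2% of those tested, the 95% interval lay within 1 log2 unit of 0, and for 4656 (30.5%) it lay within 0.5. The median interval reached 0.48 log2 units to each side. In 2831 symbols (18.6%) both CHIR99021 libraries were above both WNT3A libraries, and in 3141 (20.6%) both were below. These shares are the background for every count of non-overlapping libraries given below.

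WNT-induced genes were among those that differed most between the 2 CHIR99021 libraries. Of 13591 symbols at a mean of at least 1 CPM, 274 (2.02%) differed at least 2-fold between them, against 362 of 13601 (2.66%) between the WNT3A libraries, which come from different repeats. Yet the differences of at least 4-fold were uneven, with 33 symbols higher in CHIR99021 replicate 2 and 12 higher in replicate 1. Among the 20 symbols with the largest excess in replicate 2 at a mean of at least 10 CPM were EVX1, CDX2, CDX1, TBXT, MIXL1, LEF1, WLS, EOMES, WNT5B, GBX2, NKD1 and APCDD1. The 20 with the largest excess in replicate 1 included FAM220A, LEFTY1, IQSEC2, PRDM14, PPP1R16B, FZD5, FAT4 and MAGED4. MAGED4 was also at 47.0 and 0.113 CPM in the mTeSR1 libraries, so its values are uncertain. On the first principal component, which held 36.6% of the variance, CHIR99021 replicate 2 scored 31.39, beside 29.19 and 29.4 for the WNT3A libraries at 18 h. CHIR99021 replicate 1 scored 5.18, nearer to CHIR99021 at 6 h, with 0.31 and -2.94. The closest score was that of WNT3A 6 h replicate 1, at 4.09. This component also spread libraries of the same group, with WNT3A 6 h replicate 2 at -38.14 and mTeSR1 at -12.09 and -46.39. Levels of most genes below are therefore given for each CHIR99021 library separately. Counts and medians of some lists take the 2 libraries together. The cause of the difference between the 2 libraries was not tested.

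Genes that WNT signalling switches on as its own feedback are the most direct readout of β-catenin activity. Promoters of SP5 and MIXL1 are printed because both genes were low in CHIR99021 replicate 1 and high in replicate 2, and because both hold the TCF/LEF motif. Each line gives the 250 bases before the gene's start, 5′ to 3′ on the strand of the gene, from RefSeq on GRCh38.p14. SP5 is at chr2:170715087-170715336 on the plus strand and MIXL1 at chr1:226223414-226223663 on the plus strand. Capitals mark CTTTGAA or CTTTGAT on either strand, which occur 3 times for SP5 and 1 time for MIXL1.
SP5: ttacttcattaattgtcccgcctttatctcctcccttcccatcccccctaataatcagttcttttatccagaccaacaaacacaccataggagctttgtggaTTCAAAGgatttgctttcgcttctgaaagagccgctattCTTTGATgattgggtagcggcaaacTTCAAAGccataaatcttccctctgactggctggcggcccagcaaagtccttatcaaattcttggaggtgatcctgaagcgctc
MIXL1: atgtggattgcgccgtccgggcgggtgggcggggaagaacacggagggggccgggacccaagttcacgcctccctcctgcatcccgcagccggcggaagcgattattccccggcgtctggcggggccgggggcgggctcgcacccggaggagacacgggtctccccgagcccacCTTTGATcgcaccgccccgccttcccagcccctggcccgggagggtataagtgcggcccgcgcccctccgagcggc
In windows of 300 bases around the start, 1906 of 27305 RefSeq promoters (6.98%) held either form. Of the 17 WNT feedback genes 9 had a promoter in the table, and DKK1, SP5 and SP8 held the motif. Of the 14 primitive streak genes 10 had one, and MIXL1 and SP5 held it. A match is a description of the letters in this window.

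Among the WNT feedback genes, CHIR99021 replicate 1 was low and replicate 2 high, with both WNT3A libraries in between. Of 17 genes 16 were tested and 0 had both CHIR99021 libraries on the same side of both WNT3A libraries. Of all symbols, 18.6% had both above and 20.6% both below. Replicate 1 was below both WNT3A libraries in 12 of 16, where 35.6% of all symbols were, and replicate 2 was above both in 9 of 16, where 31.4% of all symbols were. Replicate 1 was below replicate 2 in 15 of 16, against 50.6% of all symbols. Against WNT3A replicate 2, the library of the same repeat, the list's median log2 ratio was -0.85 for CHIR99021 replicate 1 and 0.39 for replicate 2, where the medians of all symbols were both 0.00. The summed level of the list was 979 and 1748 CPM with CHIR99021, 1658 and 1387 with WNT3A, and 360 and 411 in mTeSR1.

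AXIN2 (chr17:65528563-65561647, minus strand), a scaffold of the destruction complex and the standard WNT target, was at 120 and 249 CPM in the CHIR99021 libraries and at 211 and 168 CPM with WNT3A. Its levels in mTeSR1 were 39.3 and 31.8 CPM. The CHIR99021 pair thus enclosed the WNT3A pair, and the fitted log2 difference was 0.09 with a 95% interval of -0.61 to 0.79. Without CHIR99021 replicate 2 it was -0.53 and without replicate 1 it was 0.53. NKD1, an intracellular antagonist of Dishevelled, showed the same order with 49.6 and 190 CPM for CHIR99021 and 176 and 93.4 CPM for WNT3A. SP5, a transcription factor induced by WNT, was at 135 and 370 CPM with CHIR99021 and at 355 and 288 CPM with WNT3A. In mTeSR1 SP5 was at 0.366 and 0 CPM, so even the lower CHIR99021 library was far above untreated cells. LEF1, itself a nuclear partner of β-catenin, had the widest gap of the genes named in this paragraph, with 5.31 and 56.3 CPM for CHIR99021 and 50.1 and 22.7 CPM for WNT3A. Its paralog TCF7 was closer, at 36.6 and 59.4 CPM against 53.9 and 36.7 CPM. RNF43, a ubiquitin ligase that removes Frizzled receptors, was at 10.8 and 31.0 CPM with CHIR99021 and at 21.3 and 23.0 CPM with WNT3A. ZNRF3, which has the same role, lay between 46.7 and 52.2 CPM in all 4 libraries. CCND1, the cell-cycle gene cyclin D1, was at 423 and 518 CPM against 474 and 477 CPM.

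**Figure D1:**
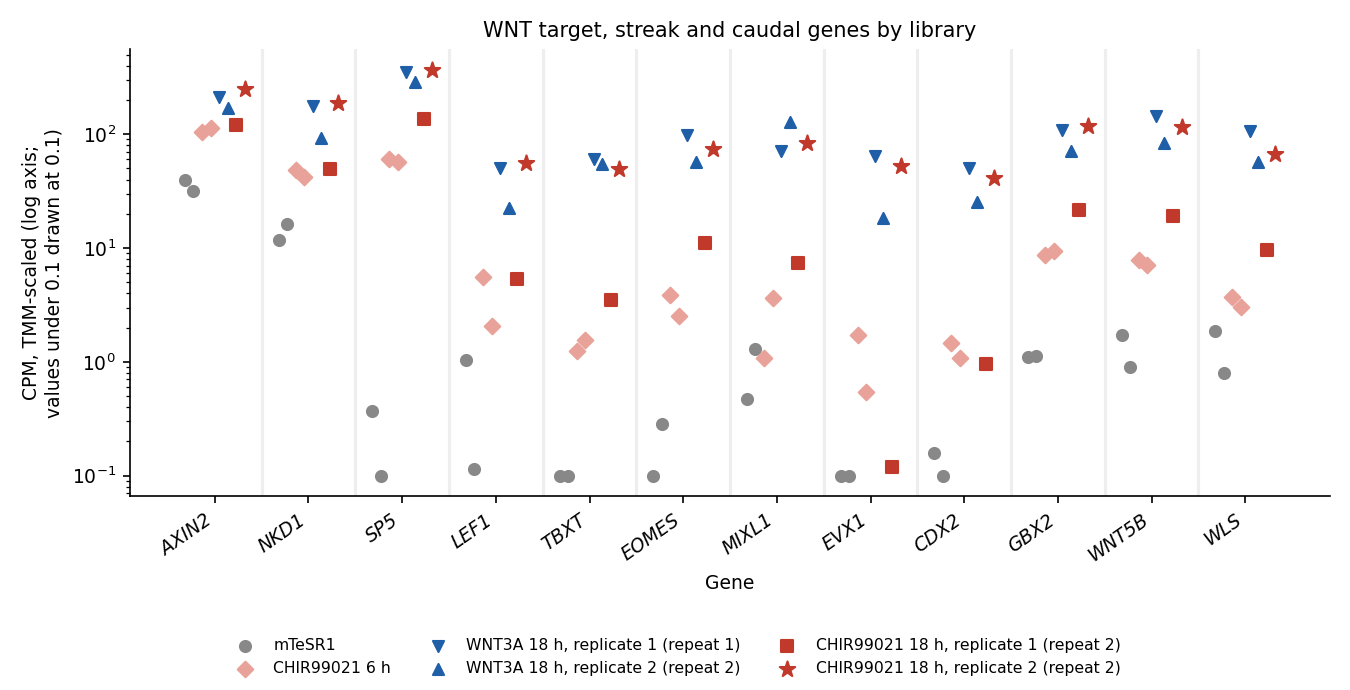
Levels in CPM on a log axis of 12 WNT-induced genes in each library, with 1 point per library for mTeSR1, WNT3A at 18 h, CHIR99021 at 18 h and CHIR99021 at 6 h. CHIR99021 18 h replicate 2 lies with the WNT3A 18 h libraries, while replicate 1 lies below them, for example at 3.52 CPM for TBXT against 49.2, 60.7 and 54.6 CPM.

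Several primitive streak genes showed a wide gap between the CHIR99021 libraries. Over the list, replicate 1 was below replicate 2 in 9 of 12, against 50.6% of all symbols. The list's median log2 ratio of replicate 2 to replicate 1 was 0.84, against 1.42 for the WNT feedback genes and 1.04 for caudal genes. TBXT (brachyury; chr6:166157656-166168700, minus strand), the defining factor of the streak, was at 3.52 CPM in CHIR99021 replicate 1 and 49.2 CPM in replicate 2. WNT3A gave 60.7 and 54.6 CPM, and CHIR99021 at 6 h gave 1.24 and 1.56 CPM. Replicate 1 thus stood nearer to the 6 h libraries and replicate 2 nearer to WNT3A. MIXL1, a homeobox factor of mesendoderm, was at 7.40 and 84.3 CPM with CHIR99021 and 71.4 and 127 CPM with WNT3A. EOMES, a T-box factor needed for endoderm, was at 11.2 and 74.8 CPM against 99.1 and 57.0 CPM. The fitted log2 difference of TBXT was -1.02 with an interval of -3.81 to 1.78, which includes 0 and a lower as well as a higher level with CHIR99021. Of 14 genes in the list 12 were tested, with 1 above and 3 below without overlap, against 18.6% and 20.6% of all symbols. Its median log2 ratio against WNT3A replicate 2 was -1.05 for CHIR99021 replicate 1 and -0.16 for replicate 2. Without CHIR99021 replicate 2, a fit in which the lone library is assumed to vary like the other groups called TBXT, MIXL1, CDX2 and EVX1 lower with CHIR99021, by log2 values of -3.92 (FDR 0.0348), -4.20 (FDR 0.0157), -4.82 (FDR 0.0261) and -7.06 (FDR 0.0157). Without replicate 1 instead, the same values were -0.12, -0.69, 0.61 and 1.63, and none was called. The fit without replicate 2 also called FAM220A higher and 1 symbol without a gene name lower. FAM220A was at 21.4 CPM in CHIR99021 replicate 1 and at 0 CPM in replicate 2.

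Genes of caudal identity, which mark the posterior end of the embryo, followed the same order. CDX2, a master regulator of caudal fate, was at 0.955 and 41.4 CPM with CHIR99021 and at 50.4 and 25.5 CPM with WNT3A. Its relative CDX1 was at 1.13 and 27.5 CPM against 24.7 and 14.3 CPM. EVX1, a homeobox gene of the posterior streak singled out after its values were seen, was at 0.119 CPM in CHIR99021 replicate 1, under the 3-count floor of 0.18 CPM, and at 52.1 CPM in replicate 2. WNT3A gave 64.0 and 18.4 CPM. In mTeSR1 CDX2 was at 0.157 and 0 CPM, CDX1 at 0.105 and 0 CPM and EVX1 at 0.0523 and 0 CPM. CHIR99021 replicate 1 was thus under the floor for EVX1 and above mTeSR1 for CDX2 and CDX1, and replicate 2 was above the lower WNT3A library for all 3. HOXB1, an early HOX gene, was lower in both CHIR99021 libraries, at 0.537 and 1.64 CPM against 2.31 and 2.48 CPM. GBX2, a factor of the posterior epiblast and hindbrain, was at 21.8 and 117 CPM against 109 and 71.3 CPM. NKX1-2, a gene of the caudal epiblast, was at 256 and 517 CPM against 607 and 408 CPM. In this list of 14 genes 11 were tested, with 0 above and 3 below without overlap, against 18.6% and 20.6% of all symbols. CHIR99021 replicate 1 was below replicate 2 in 10 of 11, against 50.6% of all symbols. The medians against WNT3A replicate 2 were -1.52 and 0.27.

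A set of genes chosen without any 18 h library showed the same order of libraries. In a fit of the 6 h and mTeSR1 libraries over 14957 symbols, 172 rose and 46 fell after 6 h of WNT3A. Of the 172, 145 were lower in CHIR99021 replicate 1 than in replicate 2 at 18 h, as were 50.6% of all symbols. In 116 of the 172 replicate 1 was below both WNT3A 18 h libraries, where 35.6% of all symbols were, and in 69 replicate 2 was above both, where 31.4% were. Their median log2 ratio against WNT3A 18 h replicate 2 was -0.37 for replicate 1 and 0.21 for replicate 2. Genes that fell at 6 h showed the mirror image, with 40 of 46 higher in replicate 1, against 49.1% of all symbols, and medians of 0.29 and -0.39. In the fit, which averages the CHIR99021 libraries, the median log2 differences of the sets were -0.08 and 0.02. Only 14 of the 172 were above and 17 below without overlap, under the background of all symbols.

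**Figure D2:**
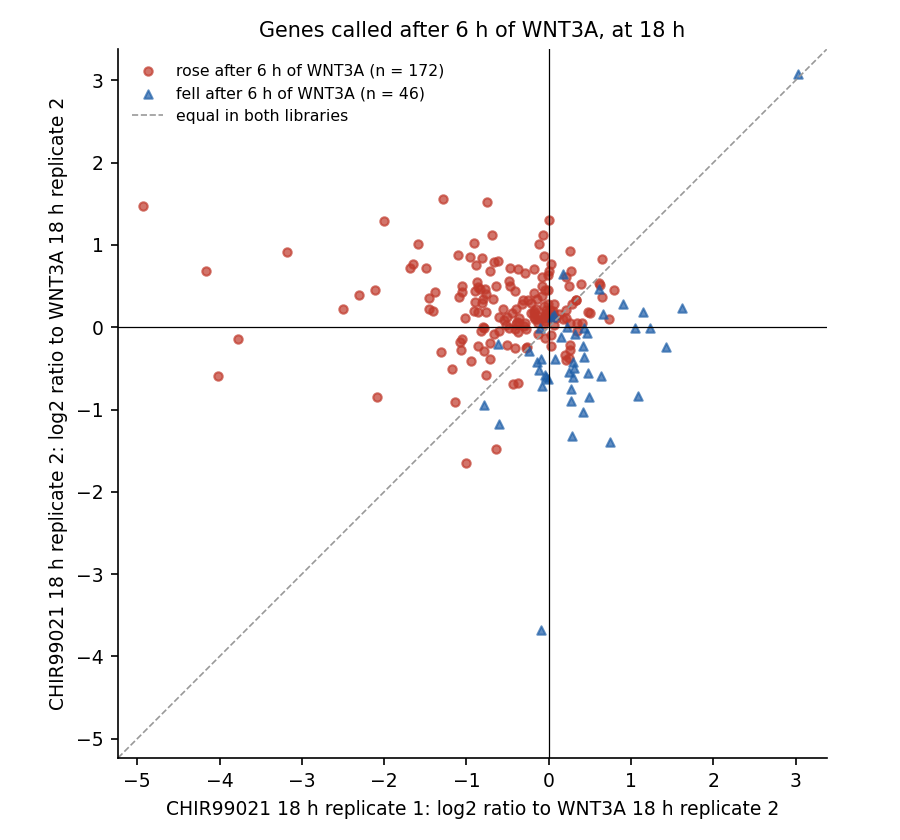
Log2 ratios of single libraries to WNT3A 18 h replicate 2 for the genes that rose (172) or fell (46) after 6 h of WNT3A. The CHIR99021 replicate 1 values of the genes that rose centre at -0.37 and those of replicate 2 at 0.21, and the order is turned for the genes that fell, at 0.29 and -0.39.

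Of 25 genes for WNT ligands and their secretion 16 were tested, and CHIR99021 replicate 1 was below replicate 2 in 10 of 16 and above it in 6, against 50.6% and 49.1% of all symbols. The median log2 ratio of replicate 2 to replicate 1 was 0.25. Of its members, 3 had a wide gap. WNT5B, a ligand known mainly for signalling without β-catenin, was at 19.2 and 116 CPM with CHIR99021 and at 144 and 84.1 CPM with WNT3A. WLS, the carrier that brings WNT proteins to the cell surface, was at 9.67 and 66.8 CPM against 106 and 57.2 CPM. WNT10B was at 1.91 and 16.8 CPM against 11 and 5.35 CPM. All 3 were low in CHIR99021 replicate 1 and at or above the lower WNT3A library in replicate 2. WNT8A, a ligand of the streak, was at 2.15 and 3.44 CPM with CHIR99021 and 3.86 and 5.53 CPM with WNT3A, with 0 CPM in both mTeSR1 libraries. WNT3 (chr17:46762506-46833154, minus strand), the ligand that starts the streak in the mouse, was at 6.21 and 7.39 CPM with CHIR99021 and 7.58 and 14.3 CPM with WNT3A. Its libraries did not overlap, and the log2 difference was -0.996 (SE 0.224, unadjusted p = 0.0018, FDR 0.884). WNT3 is the sum of 3 identifiers that share the symbol. Over the list, 1 gene was above and 6 were below without overlap, where 18.6% and 20.6% of all symbols were. RSPO1, RSPO2, WNT8B and WNT9B, all under 1 CPM in these 4 libraries, and WNT5A, at 3.22 and 2.82 CPM with CHIR99021, were lower in replicate 2.

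At the cell surface, FZD7 and FZD8 were at lower levels with WNT3A than in mTeSR1, and CHIR99021 left them nearer to mTeSR1 in the fit. Both genes were higher in CHIR99021 replicate 1 than in replicate 2. Within repeat 2, CHIR99021 replicate 2 was nearer to WNT3A than to mTeSR1 for both. FZD7, the main Frizzled receptor of human embryonic stem cells, was at 552 and 369 CPM with CHIR99021, 286 and 319 CPM with WNT3A, and 482 and 605 CPM in mTeSR1. The libraries did not overlap, and the log2 difference was 0.52 (SE 0.20, unadjusted p = 0.0269, FDR 1). FZD8 was at 4.66 and 2.65 CPM against 2.87 and 0.921 CPM, and at 24.0 and 10.6 CPM in mTeSR1. Its libraries overlapped across repeats, and the blocked log2 difference was 1.61 (SE 0.36, unadjusted p = 0.00161), or 0.92 without the block. FZD5 had a wider gap between the CHIR99021 libraries, at 92.3 and 29.8 CPM against 27 and 55.8 CPM. The co-receptor LRP5 lay between 69.7 and 75.8 CPM in the 4 libraries. Of 23 receptor genes, all tested, 2 were above and 5 below without overlap, where 18.6% and 20.6% of all symbols were. In 18 the interval lay within 1 log2 unit, as it did in 72.2% of all symbols.

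Of 13 genes for secreted or retained WNT inhibitors, 9 were tested and 0 were on one side without overlap. Of all symbols, 18.6% were above and 20.6% below. SFRP1, a secreted inhibitor that binds WNT, was at 170 and 110 CPM with CHIR99021, 122 and 52.4 CPM with WNT3A, and 981 and 693 CPM in mTeSR1. Within repeat 2 both CHIR99021 libraries were above the WNT3A library, while replicate 2 lay below the WNT3A library of repeat 1. The log2 difference was 1.14 (unadjusted p = 0.00381), or 0.68 without the block, and DESeq2 called it. SFRP1 was singled out after its values were seen. SHISA2, which holds back Frizzled receptors in the endoplasmic reticulum, was at 2.27 and 0.564 CPM against 0.612 and 0.403 CPM, far under 36.9 and 40.4 CPM in mTeSR1.

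Genes of the destruction complex, which holds the target of CHIR99021, were near each other under both treatments. GSK3A, one of the GSK3 genes, was at 112 and 107 CPM with CHIR99021 and at 109 and 109 CPM with WNT3A, a log2 difference of 0.10 with an interval of -0.24 to 0.44. GSK3B was at 85.4 and 75 CPM against 75.9 and 72.3 CPM, a log2 difference of 0.04 with an interval of -0.35 to 0.43. These RNA levels say nothing of kinase activity. CTNNB1, the gene of β-catenin, was at 369 and 362 CPM against 485 and 415 CPM without overlap, a log2 difference of -0.30 (unadjusted p = 0.19). AXIN1 was at 97.2 and 108 CPM against 96.2 and 97.6 CPM. APC2, a relative of APC, was at 1.85 and 2.37 CPM against 3.44 and 0.921 CPM, so that the groups had nearly the same mean. The blocked log2 difference was 1.34 (unadjusted p = 0.00299), and without the replicate block it was -0.065 (unadjusted p = 0.953). Of 17 genes 3 were above and 2 below without overlap, where 18.6% and 20.6% of all symbols were. In 16 the interval lay within 1 log2 unit, as it did in 72.2% of all symbols. TCF7L1, the TCF factor that acts mostly as a repressor in pluripotent cells, was at 173 CPM in CHIR99021 replicate 1 and 92.5 CPM in replicate 2, with 77.7 and 105 CPM for WNT3A and 280 and 312 CPM in mTeSR1.

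Genes of the pluripotent state ran the other way from the streak genes. Of 22 genes 21 were tested, and 19 of these were higher in CHIR99021 replicate 1 than in replicate 2, against 49.1% of all symbols. Replicate 1 was above both WNT3A libraries in 12 of 21, where 34.4% of all symbols were, and replicate 2 was below both in 12 of 21, where 34.1% of all symbols were. Their median log2 ratio against WNT3A replicate 2 was 0.08 for replicate 1 and -0.22 for replicate 2. PRDM14, a repressor of differentiation genes, was at 44.6 and 11.4 CPM with CHIR99021, 16.6 and 20.8 CPM with WNT3A, and 96.2 and 139 CPM in mTeSR1. OTX2, a factor of the anterior epiblast, was at 16.7 and 7.56 CPM against 8.52 and 11.1 CPM. For both genes replicate 1 lay between the mTeSR1 and the WNT3A levels. The core genes differed less: POU5F1, the sum of 4 identifiers, was at 1596 and 1496 CPM against 1582 and 1790 CPM, and SOX2 at 380 and 331 CPM against 288 and 340 CPM. NANOG was at 170 and 139 CPM with CHIR99021 and 153 and 240 CPM with WNT3A, a blocked log2 difference of -0.70 (unadjusted p = 0.00157), or -0.35 without the block, with libraries that overlapped across repeats. NODAL, a ligand that works with WNT in the streak, was at 124 and 140 CPM against 70.5 and 210 CPM. Its inhibitor LEFTY1 was at 19.1 and 1.13 CPM with CHIR99021 and 1.08 and 20.4 CPM with WNT3A, so that each treatment had 1 high and 1 low library. The ligand FGF8 was at 21.0 and 13.3 CPM against 6.59 and 42.8 CPM.

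**Figure D3:**
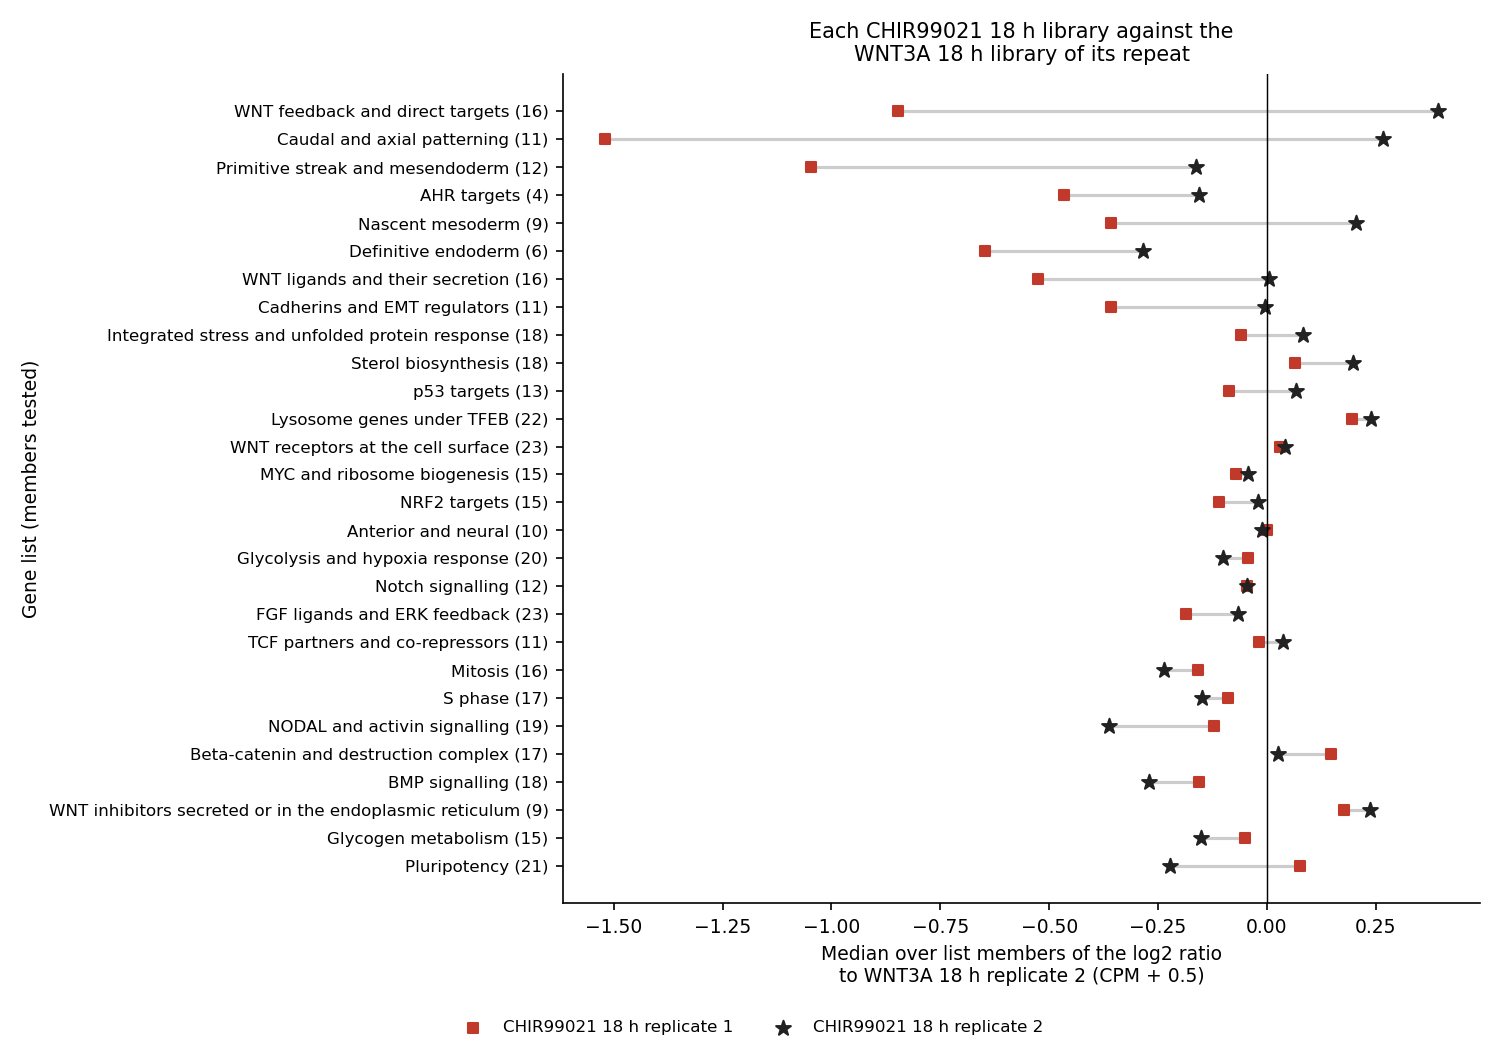
Median log2 ratio to WNT3A 18 h replicate 2 of the tested genes of each list, with 1 point for each CHIR99021 18 h library. The points of the WNT feedback genes (-0.85 and 0.39), primitive streak (-1.05 and -0.16) and caudal genes (-1.52 and 0.27) lie far apart, while those of the lysosome genes lie together at 0.20 and 0.24.

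Both CHIR99021 libraries were above both WNT3A libraries in 18.6% of all symbols and below both in 20.6%. From these, a group of 12 genes in each direction was taken by a fixed rule. The rule took the lowest unadjusted p among genes with at least 1 CPM, a log2 difference of at least 1 and no overlap. None passed FDR 0.05, and their CHIR99021 libraries were not always close together. GDF3 (chr12:7689782-7695776, minus strand), a ligand of the TGF-β family that can act through NODAL receptors, was at 15.8 and 12.1 CPM with CHIR99021 and 20.8 and 39.4 CPM with WNT3A. Its log2 difference was -1.44 (SE 0.19, unadjusted p = 3.67e-05, FDR 0.56), and in DESeq2 the FDR was 0.000144. MEIS3 (chr19:47403124-47419523, minus strand), a homeodomain partner of HOX proteins, was at 8.71 and 9.54 CPM against 33.1 and 23.3 CPM. Its log2 difference was -1.20 (SE 0.18), with a DESeq2 FDR of 0.00787. For both genes the CHIR99021 libraries lay close together and below either WNT3A library.

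PGM1 (chr1:63593276-63660245, plus strand), the phosphoglucomutase that links glucose 6-phosphate to glycogen, was at 72.4 and 91.6 CPM with CHIR99021 and 148 and 156 CPM with WNT3A. In mTeSR1 it was at 43.3 and 68.5 CPM, and the log2 difference was -1.04 (SE 0.18, DESeq2 FDR 0.00633). PPP1R3B, a subunit that brings a phosphatase to glycogen, was likewise lower, at 66.3 and 84.2 CPM against 146 and 111 CPM, with a log2 difference of -0.83 (unadjusted p = 0.00649). Glycogen synthase itself, GYS1, was at 71.1 and 71.0 CPM against 62.5 and 63.2 CPM, a log2 difference of 0.10. Of 15 glycogen genes 2 were above and 3 below without overlap, which is near the background.

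CYP1B1, a cytochrome P450 enzyme induced through the aryl hydrocarbon receptor, was at 2.09 and 3.78 CPM with CHIR99021, 10.5 and 11.2 CPM with WNT3A, and 0.942 and 1.30 CPM in mTeSR1. Its log2 difference was -1.88 (unadjusted p = 0.000832). PCDH10, a protocadherin, was at 4.18 and 7.62 CPM against 15.4 and 18.4 CPM, and DESeq2 called it. IER3, an immediate early gene, was at 10.6 and 10.5 CPM against 18.2 and 24.7 CPM. FGF13, an intracellular member of the FGF family singled out after its values were seen, was at 24.9 and 22.4 CPM against 30.7 and 43.5 CPM, and DESeq2 called it. Low-level genes of the group were GJA5, BDKRB2 and SAMD3, all under 6 CPM in these 4 libraries. PSMC1P1, a pseudogene, had 0 counts in both CHIR99021 libraries and 9.09 and 5.24 CPM with WNT3A, but also 6.43 and 0 CPM in mTeSR1. ZNF204P and PPIAP46 are pseudogenes too, and reads of such copies can be divided with the parent gene, so the values of all 3 are uncertain. SERPINB9, an inhibitor of granzyme B called by DESeq2 and singled out after its values were seen, was at 63.5 and 66.3 CPM against 56.5 and 115 CPM, with overlap across repeats.

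The genes that the rule took as higher with CHIR99021 in both libraries were mostly scarce. CEND1, known for cell cycle exit of neural precursors, was at 7.52 and 4.80 CPM with CHIR99021, 3.06 and 2.30 CPM with WNT3A, and 18.5 and 11.2 CPM in mTeSR1. Its log2 difference was 1.53 (unadjusted p = 0.000527), and DESeq2 called it. It was thus below mTeSR1 under both treatments, and less far below with CHIR99021. ARRDC4, an arrestin-related gene that responds to glucose, was at 10.4 and 8.46 CPM against 4.76 and 4.89 CPM. ADRA2A, an adrenergic receptor, was at 10.4 and 4.29 CPM against 2.64 and 2.30 CPM. CUZD1 was at 5.91 and 7.62 CPM against 5.27 and 1.67 CPM, and DESeq2 called it. NPAS2, a clock transcription factor, was at 1.61 and 0.79 CPM against 0.235 and 0.403 CPM. The others were ATAD3C, TPTEP2-CSNK1E, ST20, CACNA1E, FTCD, SMG1P6 and 1 symbol without a gene name. ATAD3C and SMG1P6 have near copies, and TPTEP2-CSNK1E is a transcript read through into its neighbour, so their values are uncertain.

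**Figure D4:**
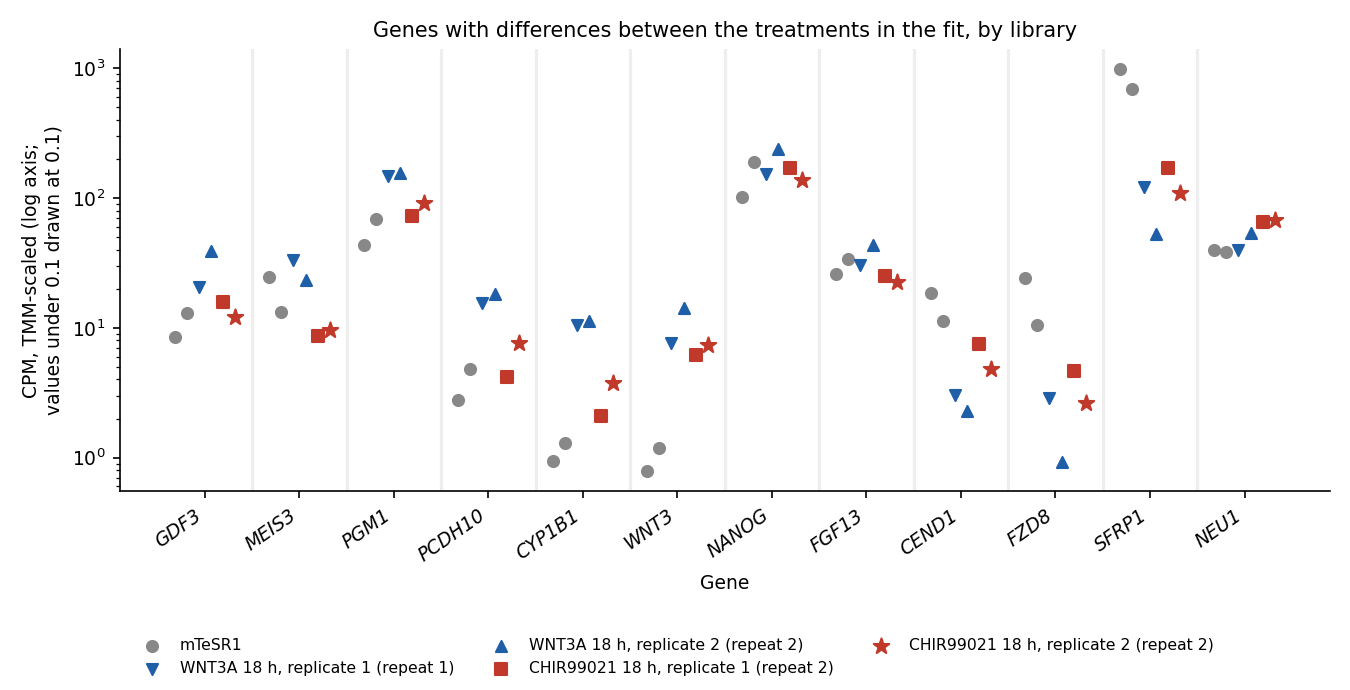
Levels in CPM on a log axis of 12 genes in the mTeSR1, WNT3A 18 h and CHIR99021 18 h libraries, with values under 0.1 CPM drawn at 0.1. For GDF3, MEIS3, PGM1, PCDH10 and CYP1B1 both CHIR99021 points lie below both WNT3A points, and for CEND1 and NEU1 both lie above.

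Lysosome genes that the factor TFEB controls were higher with CHIR99021 in both libraries by a small amount. Of 22 genes, all tested, 15 had both CHIR99021 libraries above both WNT3A libraries and 0 had both below, where 18.6% and 20.6% of all symbols did. Against WNT3A replicate 2 alone, 17 had both CHIR99021 libraries above and 2 both below, where 32.6% and 34.3% of all symbols did. The median log2 difference was 0.21, against 0.00 for all symbols, and the median ratios to WNT3A replicate 2 were 0.20 and 0.24. No member passed FDR 0.05, and 3 had an unadjusted p under 0.05. NEU1, the lysosomal sialidase, was at 65.3 and 67.3 CPM with CHIR99021 and 39.8 and 53.7 CPM with WNT3A, a log2 difference of 0.46 (SE 0.17, unadjusted p = 0.0245). CTSA, the protective protein that forms a complex with NEU1, was at 56.9 and 63.9 CPM against 42.6 and 48.6 CPM, a log2 difference of 0.32 (SE 0.13). RRAGD, a GTPase that signals from the lysosome to mTORC1, was at 11.6 and 9.99 CPM against 8.43 and 7.37 CPM, and higher than either in mTeSR1 at 15.1 and 16.7 CPM. LAMP1, the main lysosomal membrane protein, was at 287 and 291 CPM against 242 and 252 CPM. MCOLN1, the lysosomal calcium channel, was at 28.6 and 27.8 CPM against 21.8 and 23.4 CPM. TFEB itself was under 1 CPM in all 4 libraries, and the related TFE3 was at 114 and 88.3 CPM against 81.2 and 86.2 CPM. No fitted gain in the list reached 1 log2 unit. CHIR99021 replicate 1 was below replicate 2 in 12 of 22, against 50.6% of all symbols.

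Promoters of CTSA and MCOLN1 are printed because these members were higher in both CHIR99021 libraries and hold the core of the element that TFEB binds. The lines give 250 bases before the start from RefSeq on GRCh38.p14, for CTSA at chr20:45891085-45891334 and for MCOLN1 at chr19:7522374-7522623, both on the plus strand. Capitals mark TCACGTGA, which reads the same on both strands and occurs 1 time for CTSA and 2 times for MCOLN1.
CTSA: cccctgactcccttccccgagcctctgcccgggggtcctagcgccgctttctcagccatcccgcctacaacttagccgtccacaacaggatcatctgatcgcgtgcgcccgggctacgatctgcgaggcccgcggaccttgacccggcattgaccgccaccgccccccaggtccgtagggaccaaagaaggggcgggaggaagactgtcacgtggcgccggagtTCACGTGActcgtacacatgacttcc
MCOLN1: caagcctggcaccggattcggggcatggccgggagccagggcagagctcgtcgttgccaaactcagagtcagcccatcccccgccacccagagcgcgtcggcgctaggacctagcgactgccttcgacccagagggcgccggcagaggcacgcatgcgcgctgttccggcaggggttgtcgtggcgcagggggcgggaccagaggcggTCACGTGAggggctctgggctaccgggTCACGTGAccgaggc
Of the 22 lysosome genes 15 had a promoter in the table, and LAMP1, CTSA, MCOLN1 and ATP6V0D1 held the motif in the 300 bases around the start. Among all 27305 promoters 283 (1.04%) held it. The list was made of genes under TFEB, which binds this element, so the motif is to be found in it whatever the treatments do. A part of TFEB in the shift was not tested. ATP6V0D1, a proton pump subunit, was at 45.8 and 58.3 CPM with CHIR99021 and 58.7 and 49.4 CPM with WNT3A, so that a member with the motif did not share the pattern.

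Genes of sterol synthesis showed a similar small shift. Of 18 genes 11 were above and 1 below without overlap, where 18.6% and 20.6% of all symbols were. The median log2 difference was 0.23. DHCR7, which completes cholesterol synthesis, was at 320 and 337 CPM with CHIR99021 and 246 and 271 CPM with WNT3A, a log2 difference of 0.32 (unadjusted p = 0.0294). SC5D, another late enzyme of the pathway, was at 137 and 146 CPM against 96.8 and 118 CPM, a log2 difference of 0.31 (unadjusted p = 0.0242). INSIG1, which holds back sterol synthesis when sterols are ample, was at 118 and 122 CPM against 74.4 and 105 CPM. The interval lay within 1 log2 unit in 18 of 18. In several members the WNT3A library of repeat 2 was close to the CHIR99021 libraries, and the median ratios to it were 0.07 and 0.20.

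Mitochondrially encoded transcripts, a common measure of RNA and cell quality, split the libraries in the same way. Of 13, 12 were above and 0 below without overlap, where 18.6% and 20.6% of all symbols were. The median log2 difference was 0.38. Their sum was 50920 and 50200 CPM with CHIR99021, 26630 and 40770 CPM with WNT3A, and 38880 and 69300 CPM in mTeSR1. MT-CO1, a subunit of cytochrome c oxidase, was at 14910 and 14930 CPM against 8545 and 11860 CPM. In mTeSR1 it was at 12470 CPM in repeat 1 and 21180 CPM in repeat 2. Within repeat 2, both CHIR99021 libraries and the WNT3A library lay below mTeSR1. In every group with both repeats, the mitochondrial share of counts was higher in repeat 2 than in repeat 1. The part of this share in the lysosome and sterol results was not tested.

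Genes of glucose use and of the cell cycle were more often below than above without overlap, where 18.6% of all symbols were above and 20.6% below. Of 22 glycolysis and hypoxia genes 20 were tested, with 1 above and 10 below without overlap. Their median log2 difference was -0.04, near the 0.00 of all symbols. SLC2A3, a glucose transporter, was at 618 and 850 CPM with CHIR99021 and 1072 and 882 CPM with WNT3A. PDK1, a kinase that inhibits pyruvate dehydrogenase, was at 40.2 and 50.3 CPM against 51.0 and 66.1 CPM, and at 12.6 and 12.4 CPM in mTeSR1. Its log2 difference was -0.54 (unadjusted p = 0.0178). Of 16 mitosis genes 0 were above and 7 below, with a median of -0.19, and of 17 S phase genes 0 were above and 8 below, with a median of -0.08. CCNB2, a mitotic cyclin, was at 57.7 and 62.2 CPM against 68.1 and 75.8 CPM, a log2 difference of -0.33 (unadjusted p = 0.0244). MCM6, part of the replicative helicase, was at 249 and 220 CPM against 268 and 287 CPM. None of these genes passed FDR 0.05.

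**Figure D5:**
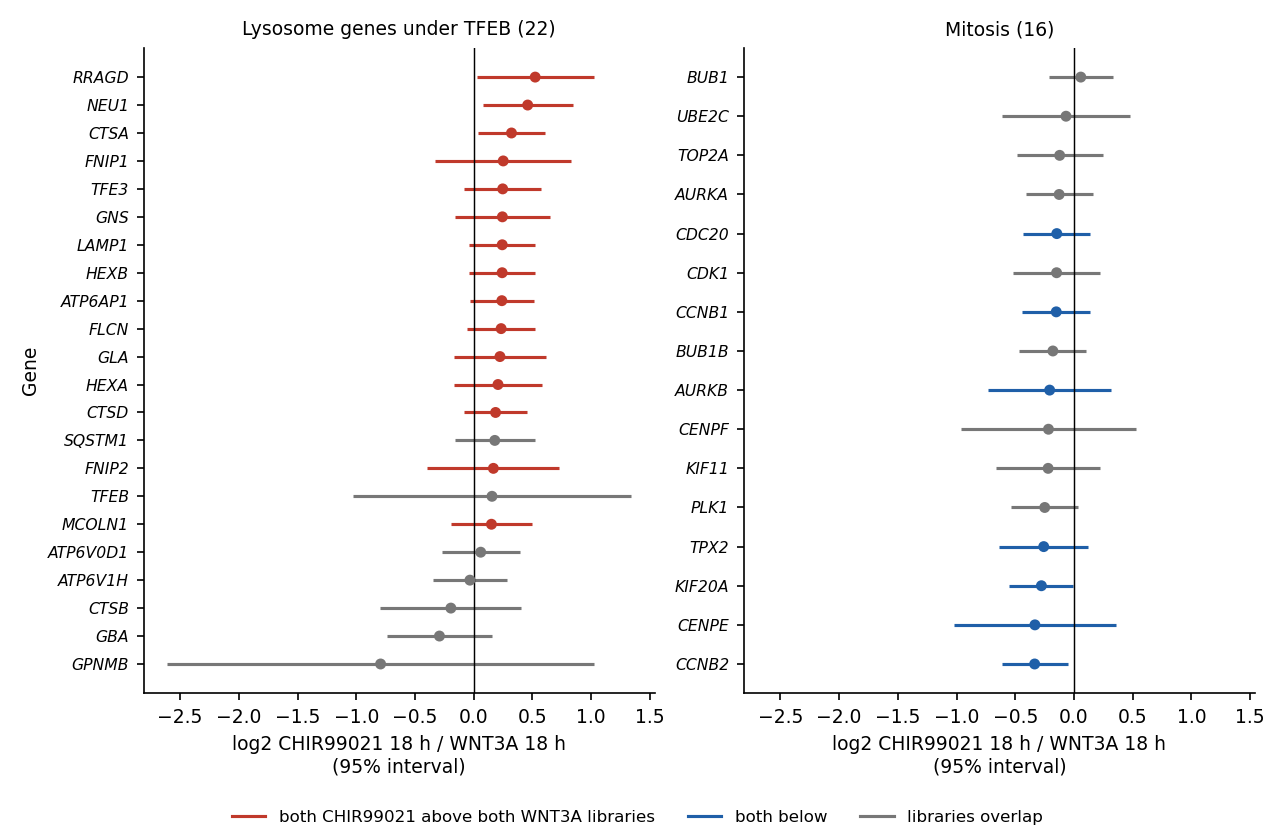
Log2 difference, CHIR99021 minus WNT3A at 18 h, with its 95% interval for each gene of the lysosome and mitosis lists, coloured by whether the libraries of the treatments overlap. Most lysosome points lie above 0 (median 0.21) and most mitosis points below (median -0.19), and the intervals of 3 lysosome and 2 mitosis genes exclude 0.

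Other signalling lists were near the background, at 18.6% of all symbols above and 20.6% below without overlap, or leaned low. Of 18 tested BMP genes 0 were above and 6 below without overlap, and of 23 FGF genes 2 were above and 7 below. DUSP6, a phosphatase induced by ERK activity, was at 19.0 and 25.6 CPM with CHIR99021, 70.5 and 29.5 CPM with WNT3A, and 104 and 88.2 CPM in mTeSR1. SPRY1, another ERK feedback gene, was at 21.9 and 18.7 CPM against 22.7 and 33.9 CPM. NRF2 targets, which respond to oxidative stress, gave 2 above and 5 below of 15, and 14 of the 15 intervals lay within 1 log2 unit. Of 73 markers of other cell types 36 were tested. The summed trophoblast and amnion markers were at 380 and 402 CPM with CHIR99021 and 493 and 490 CPM with WNT3A, led by the epithelial keratin KRT18 at 280 and 292 CPM against 355 and 361 CPM. Only 6 of these 18 markers were tested, and the untested ones reached at most 0.405 CPM at 18 h. Summed neural crest markers were at 244 and 157 CPM against 125 and 194 CPM, and fibroblast markers at 467 and 409 CPM against 440 and 456 CPM. Their part in the results above was not tested.

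In edgeR no gene passed the FDR for a change from 6 h to 18 h in the difference between CHIR99021 and WNT3A. With edgeR 0 symbols (0%) passed FDR 0.05 for the difference at 18 h minus that at 6 h, the lowest FDR was 0.381, and 574 symbols (3.76%) had an unadjusted p under 0.05. DESeq2 called 12. At 6 h alone, 3 symbols (0.0197%) were called between the agents and 1837 (12%) had an unadjusted p under 0.05. Between the WNT3A 6 h libraries 1113 of 13714 symbols (8.12%) differed at least 2-fold, and between those of CHIR99021 6 h 329 of 13674 (2.41%).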

How the data were processed

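RNA of 10 libraries was sequenced, and the authors deposited a table of estimated counts with genes as lines and libraries as columns. The submitters' processing notes name Salmon 1.8.0 and the build GRCh38. Transcript set, summing of transcripts to genes, strand and filters were not given in the sources used here. Overlapping and antisense genes therefore cannot be told apart. All columns matched a sample, with 0 left over.

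Identifiers that share a symbol were summed (37951 identifiers, 35940 symbols, 1034 with more than 1 identifier), and sums were rounded. Tests used edgeR 4.0.16 (with limma 3.58.1, R 4.3.3): robust quasi-likelihood fit of all 10 libraries, so that groups share an estimate of the spread, TMM scaling, filterByExpr (minimum count 10, minimum total 15), repeat as a block, Benjamini-Hochberg FDR of 0.05. DESeq2 1.42.0 was an alternative. Levels are TMM-scaled CPM. Log2 ratios of single libraries add 0.5 CPM. P-values measure the spread between libraries, which may be technical, and CHIR99021 at 18 h has no library of repeat 1.

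Pairing by repeat follows the design text of the series. As a check, Pearson correlations of the deviations from group means between libraries of 1 repeat ranged from 0.29 to 0.747 (6 pairs of groups), and 354 symbols were higher and 555 lower in repeat 2. Replicates always differed by more than sampling noise (chi-square per degree of freedom 12.6 to 106). Scripts were tested on simulated data.

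Named genes were up to 12 per direction past the FDR, filled by lowest unadjusted p at 1 CPM or more, an absolute log2 difference of 1 or more and no overlap, plus a fixed panel (of which LGR5 was too low to be tested) and examples from the lists. Members and lists were chosen with earlier results of these data known. Alternatives changed the block, scaling, filter, tool, summing and libraries. Gene coordinates are from GENCODE on GRCh38, promoters from RefSeq.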

Additional observations from a re-analysis of the deposited data

Results flagged for a closer look

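For 4 named genes the libraries of CHIR99021 and WNT3A did not overlap at either time and lay on opposite sides at 6 h and 18 h. The change of the log2 difference from 6 h to 18 h had an FDR of 0.927 for each in edgeR. ATAD3C, a gene with near copies, was at 3.84 and 2.59 CPM with CHIR99021 and 7.17 and 4.71 CPM with WNT3A at 6 h, and at 3.64 and 6.21 CPM against 3.06 and 1.21 CPM at 18 h, a change of 2.58 (unadjusted p = 0.000575). PCDH10 was at 1.24 and 1.40 CPM against 0.708 and 1.22 CPM at 6 h, and its difference changed by -2.23 (unadjusted p = 0.0021) with the 18 h levels given above. WNT8A was at 0.379 and 0.27 CPM against 0.236 and 0 CPM at 6 h, close to the 3-count floor, and its difference changed by -2.18 (unadjusted p = 0.112). GYS1 was at 59.3 and 64.1 CPM against 70.1 and 88.2 CPM at 6 h, and its difference changed by 0.45 (unadjusted p = 0.0301).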

How the results depend on the processing

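The count of genes called between CHIR99021 and WNT3A at 18 h was 0, and it was 9 with DESeq2, 1 by identifier without summing (ATF6B, whose identifiers divide the reads) and 6 without the mTeSR1 and WNT3A 6 h libraries of repeat 2 (GDF3, IFITM1, MEIS3, MT-ND5, PSMC1P1 and SERPINB9). Leaving out each library in turn gave 0 to 6, with 6 only without CHIR99021 replicate 2. Without the replicate block the count was 0. For the difference between 18 h and 6 h the count of 0 became 1 without a filter, 12 with DESeq2, 1 by identifier, 777 in repeat 2 alone, where the spread comes from the CHIR99021 18 h pair only, 11 without those libraries of repeat 2, and 0 to 6 on leaving out each library (6 without CHIR99021 18 h replicate 1, 2 without replicate 2). Without the replicate block it was 0. Of 51 named genes 36 kept their sign in all alternatives, and 38 of 1013 values had the opposite sign. Without the replicate block, and in the 4 libraries at 18 h alone, log2 differences turned for AXIN2 (-0.0383 and -0.0308), LEF1 (-0.24 and -0.23), POU5F1 (-0.12 and -0.12) and EVX1 (-0.66 and -0.65). In repeat 2 alone NKD1 was 0.37 and POU5F1 -0.21, and without the mTeSR1 and WNT3A 6 h libraries of repeat 2 they were 0.18 and -0.19. SP5 was 0.0365 with DESeq2. On leaving out each library, ranges were -0.53 to 0.53 for AXIN2, -1.33 to 0.61 for NKD1, -1.01 to 0.44 for SP5, -2.0 to 1.40 for LEF1, -0.31 to 0.41 for TCF7, -0.25 to 0.0383 for CCND1, -1.03 to 0.95 for WNT8A, -2.38 to 0.37 for EOMES, -4.82 to 0.61 for CDX2, -0.74 to 0.27 for NKX1-2, -0.21 to 0.64 for POU5F1, -0.30 to 0.84 for OTX2, -0.0166 to 0.17 for GYS1, -0.13 to 0.15 for GSK3B and -7.06 to 1.63 for EVX1. For most of these genes the ends came from leaving out one or the other CHIR99021 library. The median of the lysosome genes stayed between 0.19 and 0.23 in all 20 alternatives and that of the sterol genes between 0.12 and 0.32. The cause of the other changes was not tested. Depth limits genes near the 3-count floor, and 2 libraries a group limit the rest.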
